A study of Mus musculus with 24 samples.

Results

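Zinc finger proteins of the C2H2 class hold small folds built around a zinc ion, and most of them read DNA sequence with an array of such folds. Many mouse members, named Zfp and a number, also carry a KRAB domain, through which they recruit the corepressor Trim28 (KAP1) and the histone methyltransferase Setdb1 to the sites they bind, among them retrotransposons and imprinted genes. Others bind RNA, the mitotic spindle or chromatin complexes, and for a large share of the family no function is assigned. The genes described here are those whose symbol is made of Zfp and digits only, with a mean log2 level of at least 6 over all 24 arrays. Zfp36, an RNA-binding protein with a CCCH zinc finger, was left out by the same rule. Of 312 numbered Zfp genes on the array, 98 met it and 214 did not, out of 18820 genes paired with 1 symbol.

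Hearts came from male wildtype (WT, C57BL6) and Per2-/- (KO) mice of 12 to 16 weeks, and RNA of the left ventricle was measured on 24 Affymetrix mouse gene arrays, 3 for each of 8 groups. Per2 is a core component of the circadian clock, and no restriction of its deletion to a cell type is described. Both genotypes were studied without ischemia (sham, called untreated control in the labels), after ischemia of 30 minutes that was not reperfused (I30), after ischemic preconditioning (IP0), in which 5 minutes of occlusion and 5 minutes of reflow alternated for 4 cycles, and after ischemia of 30 minutes and a reperfusion of 60 minutes (I30R60). The wildtype mice were bought C57BL6 animals and are not described as littermates. Whether the 3 arrays of a group came from 3 separate mice is not stated in the labels, and p-values then measure the spread between these arrays.

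All values are log2 intensities, and a difference of 1 is a 2-fold change. A gene was called where the adjusted p of limma's moderated test, with Benjamini-Hochberg adjustment over 18820 genes, was below 0.05. The median standard error of a treatment difference was 0.137 in 1 genotype and 0.0968 for the mean of both genotypes.

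The deleted gene gave no clean check of the labels. Per2 read 5.33, 5.94 and 6.10 in wildtype sham hearts and 5.69, 5.65 and 5.63 in Per2-/- sham hearts, so that these groups overlapped. After I30 it read 6.44, 6.31 and 5.89 in WT and 5.30, 4.94 and 5.04 in KO hearts without overlap, while after IP0 it read 4.66, 5.36 and 5.32 in WT and 5.19, 5.65 and 5.60 in KO hearts and after I30R60 5.51, 6.54 and 6.71 against 5.58, 5.99 and 6.25. Over the 4 treatments the Per2 level differed between genotypes by -0.30 (KO minus WT, SE 0.14, adjusted p = 0.357). Ventricular muscle markers averaged 12.8 to 12.9 on every array, as fits heart muscle. They did so also on the arrays with a high atrial marker named next, and so give no check on atrial tissue. The atrial light chain Myl7 stood at 8.24 and 5.22 in WT sham replicates 1 and 2, 11.2 in KO sham replicate 3 and 9.12 in KO IP0 replicate 3, against 2.79 to 3.73 on the other 20 arrays. Counts of called Zfp genes, and the differences of some of these genes, are also given without these 4 arrays. Other results that rest on these arrays are given only with them. Among those are the results for Zfp genes of lower mean, corepressor genes and other C2H2 genes, and the agreement between genotypes. Neutrophil markers averaged 4.28 to 4.36 in WT sham and 4.94 to 6.14 in WT I30R60 hearts, and 3.61 to 4.04 in KO sham and 5.23 to 6.01 in KO I30R60 hearts. Lung epithelium markers averaged 3.56 to 4.88 in WT I30 hearts and 2.74 to 3.33 elsewhere. In such whole tissue, fewer cells of a type and less RNA per cell cannot be told apart.

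The 98 members were chosen by their mean level. Their means ran from 6.01 to 10.74, with 62 between 6 and 7, 23 between 7 and 8 and 13 at 8 or more. In all, 7635 genes had a mean of at least 6. Just inside the threshold lay Zfp64 (6.02), Zfp523 (6.02) and Zfp653 (6.01), and just outside lay Zfp273 (5.99), Zfp414 (5.96) and Zfp946 (5.96). These means say how members were chosen and do not rank the genes by expression, since probes bind with different strength, and signal from near-identical family members on a shared probe set was not tested. Far inside the threshold lay Zfp706 (10.74), Zfp106 (10.39), an RNA-binding protein needed by motor neurons and muscle, Zfp971 (9.0), Zfp652 (8.49) and Zfp207 (8.49), which binds the spindle checkpoint protein Bub3.

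Most members moved little over the 8 groups. The range of a member's 8 group means had a median of 0.352 and was under 0.5 in 71 of the 98 genes. Zfp46 had the only range of at least 1, at 1.17, followed by Zfp948 with 0.976 and Zfp825 with 0.827. The smallest was that of Zfp654, at 0.0883. For 55 members the highest group mean was a sham group, 34 in WT and 21 in KO, and for 53 the lowest was an I30R60 group, 41 in KO and 12 in WT. WT I30 held the lowest mean of 21 further members.

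The same direction was seen on single arrays. Each array's median deviation of the 98 members from their own 24-array means was 0.0742 to 0.120 in WT sham and 0.0454 to 0.115 in KO sham hearts. It was -0.0432 to 0.00245 in WT I30R60 and -0.135 to -0.0779 in KO I30R60 hearts. All 6 sham arrays therefore lay above all 6 I30R60 arrays, and the KO I30R60 arrays lay below every other array. I30 hearts gave -0.0437 to 0.00684 in WT and -0.0419 to 0.0160 in KO, and IP0 hearts gave 0.000382 to 0.0633 and -0.00631 to 0.0316. For the 7635 genes with a mean of at least 6 the same measure spanned -0.0291 to 0.0398 over the sham and I30R60 arrays. On the I30 arrays it was -0.0717 to -0.0191 in WT and -0.0633 to 0.00453 in KO. There it lay below that of the members on each array but KO I30 replicate 3, at -0.0117 against -0.0218 for the members.

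**Figure D1:**
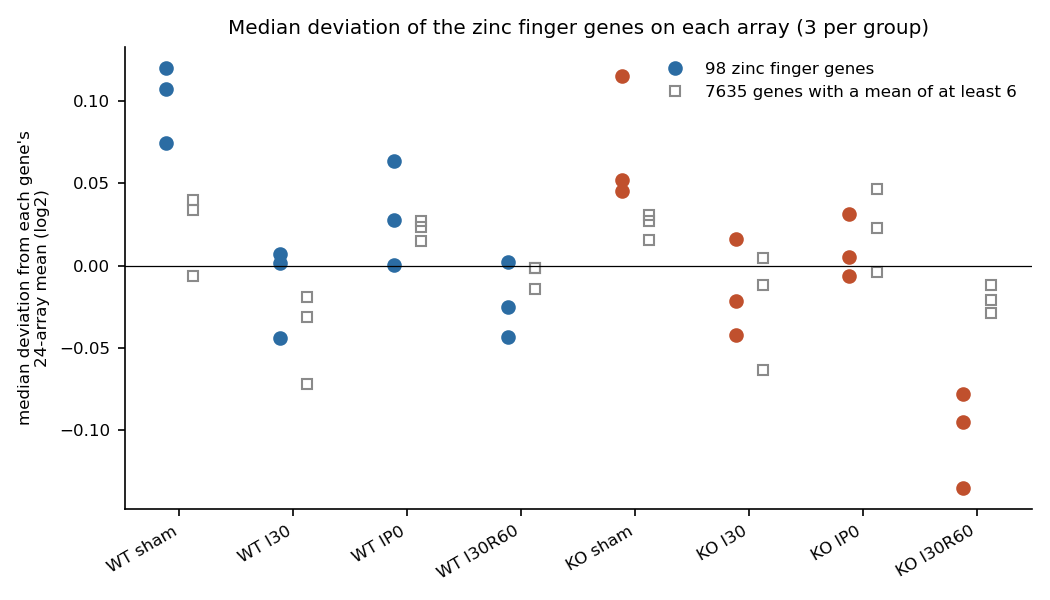
Median deviation of the 98 zinc finger genes (filled circles, blue for WT and red for KO) and of all 7635 genes with a mean of at least 6 (open squares) from each gene's mean over 24 arrays, in log2 units, for the 3 arrays of each group. The sham arrays sit at 0.0454 to 0.120 for the zinc finger genes and the KO I30R60 arrays at -0.135 to -0.0779, while the squares of both groups stay within -0.0291 to 0.0398.

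Ischemia with reperfusion gave the most calls. In the mean of both genotypes, 24 members fell and 6 rose after I30R60. Over all genes 5.05% fell and 4.29% rose, and among genes with a mean of at least 6 the shares were 7.96% and 6.98%, so that 24.5% of the members lower and 6.12% higher compares with 7.96% and 6.98%. The median member difference was -0.16 against -0.05 for genes with a mean of at least 6, and 80.6% of the members had a difference below 0 against 65.2% of those genes. The changes were small: only Zfp46 and Zfp825 passed 1.5-fold, and the smallest called change was 1.15-fold. All 30 called members had the same sign in both genotypes, and for 23 of them the 3 I30R60 arrays did not overlap the 3 sham arrays in either genotype. That is 76.7% of the called members, against 59.7% of all called genes and 62.7% of those with a mean of at least 6. Genes picked by a call in this mean tend to share a sign and not to overlap. That the numbered Zfp genes lean lower here was known when they were chosen, so the lean is a description. Of 7 neutrophil markers, 5 rose in the same comparison, and their part in these values was not tested.

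These counts depended on the arrays. With 1 array left out at a time, 23 to 29 members were called and 20 of the 30, 15 lower and 5 higher, were called every time. Without the 4 arrays with high Myl7, 14 members were called, 11 lower and 3 higher, all 30 differences kept their sign, and the median over the members was -0.17.

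**Figure D2:**
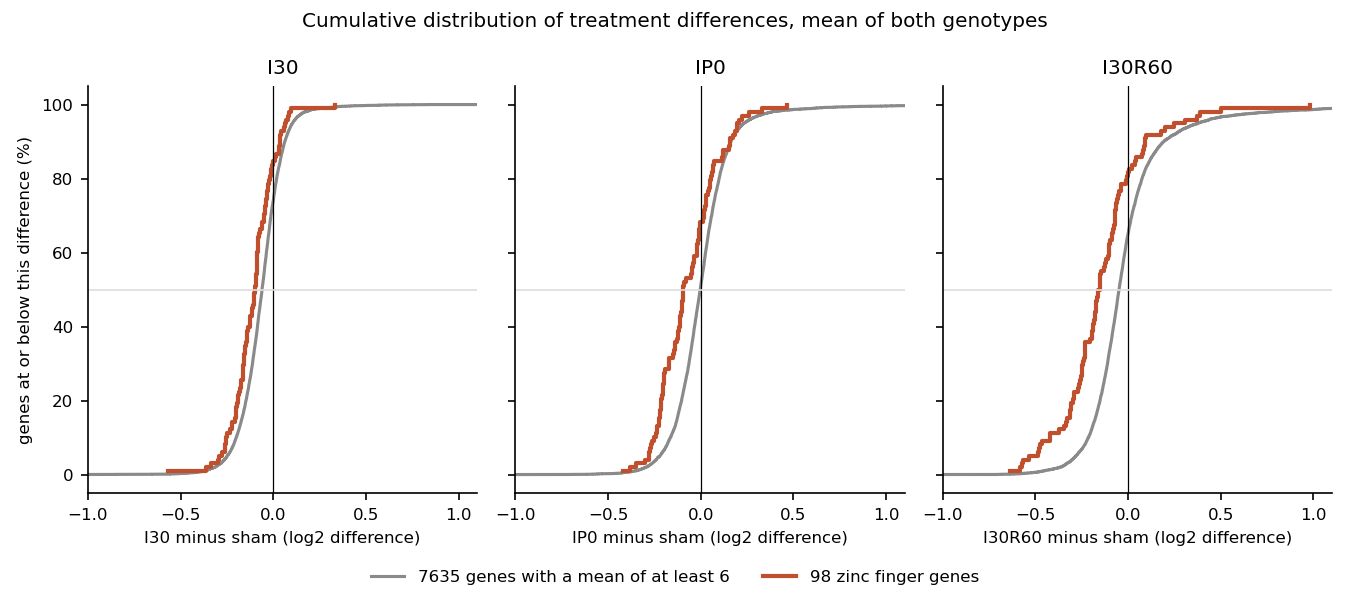
Cumulative share of genes (y axis, percent) at or below each treatment difference (x axis, log2, mean of both genotypes) for the 98 zinc finger genes (red) and the 7635 genes with a mean of at least 6 (grey). The red curve lies left of the grey one at its middle in each panel, with medians of -0.10, -0.09 and -0.16 after I30, IP0 and I30R60 against -0.06, 0.00 and -0.05; Zfp46 forms the far right end after I30R60, and the axis leaves out grey genes beyond it.

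Zfp46 had the largest change of any member. It read 6.20, 6.17 and 6.08 in WT sham and 7.09, 6.69 and 7.52 in WT I30R60 hearts. In Per2-/- hearts it read 6.09, 6.40 and 6.42 in sham and 7.79, 7.21 and 6.97 after I30R60. Every I30R60 heart was above every sham heart, and the spread was wider after I30R60. The rise was 0.95 in WT (SE 0.19, adjusted p = 0.00612) and 1.02 in KO (SE 0.19, adjusted p = 0.00239), and 0.98 in the mean of both (SE 0.13, adjusted p = 4.48e-05), 1.98-fold. Without the 4 arrays with high Myl7 the rise was 1.05 (adjusted p = 0.0032).

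The other called rises were smaller. Zfp655 read 6.96, 7.01 and 6.97 in WT sham and 7.29, 7.17 and 7.40 in WT I30R60 hearts. KO sham hearts gave 6.93, 6.95 and 7.14, and KO I30R60 hearts gave 7.54, 7.43 and 7.47. Neither genotype showed overlap, with rises of 0.31 (SE 0.08, adjusted p = 0.0349) and 0.47 (SE 0.08, adjusted p = 0.000857). The WT call was lost with any array but WT I30R60 replicate 2 left out, with an adjusted p of up to 0.151, while the KO call was kept each time. Zfp948 rose by 0.50 in the mean of both (SE 0.11, adjusted p = 0.00725), from 7.20, 7.65 and 7.24 to 7.96, 7.74 and 7.64 in WT and from 7.65, 7.46 and 6.90 to 8.08, 7.74 and 7.97 in KO hearts. Its WT groups overlapped and only the KO rise was called (0.59, adjusted p = 0.0396). With 1 array left out the KO rise ranged from 0.37 to 0.75, and its call was lost without KO sham replicate 2 or 3 or KO I30R60 replicate 1 or 3. The KO sham replicate at 6.90 is 1 of the 4 arrays with high Myl7, and without those arrays the mean rise was 0.45 (adjusted p = 0.0316).

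The remaining 3 rises were in genes with a known role or domain. Zfp568, a KRAB protein that represses a placental transcript of Igf2, rose by 0.37 (SE 0.08, adjusted p = 0.00573). Its WT sham hearts gave 6.73, 6.38 and 6.65 and its WT I30R60 hearts 6.89, 6.92 and 7.12, and in KO hearts it went from 6.99, 6.84 and 6.85 to 7.22, 7.16 and 7.34. Zfp131, which has a BTB domain, rose by 0.31 (SE 0.07, adjusted p = 0.00725), and its groups overlapped in neither genotype. Zfp281, a transcription factor known from pluripotent stem cells, rose by 0.25 (SE 0.07, adjusted p = 0.0307), from 7.40 to 7.60 in WT sham hearts to 7.68 to 7.76 after I30R60 and from 7.42 to 7.75 to 7.84 to 7.90 in KO hearts. Its call was lost with 8 of the 12 arrays left out, each in turn. In neither genotype alone were these 3 genes called. Without the arrays with high Myl7 their differences were 0.33, 0.26 and 0.20 and none was called.

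Zfp825 fell the most in the mean of both genotypes. It read 6.97, 6.72 and 6.48 in WT sham and 5.99, 6.25 and 6.37 in WT I30R60 hearts, and 6.42, 6.66 and 6.86 in KO sham against 5.60, 6.18 and 5.92 in KO I30R60 hearts. The mean fall was -0.64 (SE 0.11, adjusted p = 0.00042), 1.56-fold. WT sham replicate 1, with the highest value of 6.97, is 1 of the arrays with high Myl7, and without those 4 arrays the difference was -0.46 (adjusted p = 0.0532).

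Zfp866 and Zfp59 fell in both genotypes alone as well. Zfp866 read 6.20, 6.23 and 6.37 in WT sham and 5.55, 5.80 and 5.83 in WT I30R60 hearts. KO hearts gave 6.04, 6.24 and 6.51 in sham and 5.57, 5.59 and 5.74 after I30R60. No I30R60 heart reached a sham heart of its genotype, and the mean fall was -0.58 (SE 0.08, adjusted p = 4.73e-05). Zfp59 read 7.58, 7.58 and 7.70 in WT sham and 6.90, 7.10 and 7.02 in WT I30R60 hearts. In KO hearts it moved from 7.45, 7.44 and 7.79 to 6.86, 7.27 and 6.94, with a mean fall of -0.57 (SE 0.09, adjusted p = 0.000232). In the mean of both genotypes both were still called without the 4 arrays with high Myl7 (-0.58 and -0.56), but neither was in WT alone, nor Zfp59 in KO alone. Their WT calls were also lost without WT sham replicate 3 or WT I30R60 replicate 1, and the KO call of Zfp59 without KO sham replicate 3 or KO I30R60 replicate 1 or 3.

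Zfp770 and Zfp397 completed the 6 members called in WT, in KO and in the mean of both after I30R60, with Zfp46, Zfp655, Zfp866 and Zfp59. Zfp770 read 8.84, 8.59 and 8.95 in WT sham and 7.86, 8.36 and 8.22 in WT I30R60 hearts, and 8.59, 8.53 and 8.50 against 8.06, 8.04 and 8.25 in KO hearts. After I30R60 it had the largest fall of any member in WT (-0.65, SE 0.12, adjusted p = 0.00355) and a fall of -0.42 in KO (SE 0.12, adjusted p = 0.0486). The KO call was lost with any array but KO I30R60 replicate 3 left out, with an adjusted p of up to 0.157. Zfp397 read 7.97, 7.78 and 8.0 in WT sham and 7.43, 7.47 and 7.34 in WT I30R60 hearts, and 8.04, 7.73 and 7.90 against 7.49, 7.32 and 7.49 in KO hearts. Its mean fall of -0.48 (SE 0.06) had an adjusted p of 2.54e-05, the smallest of all members in this comparison.

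**Figure D3:**
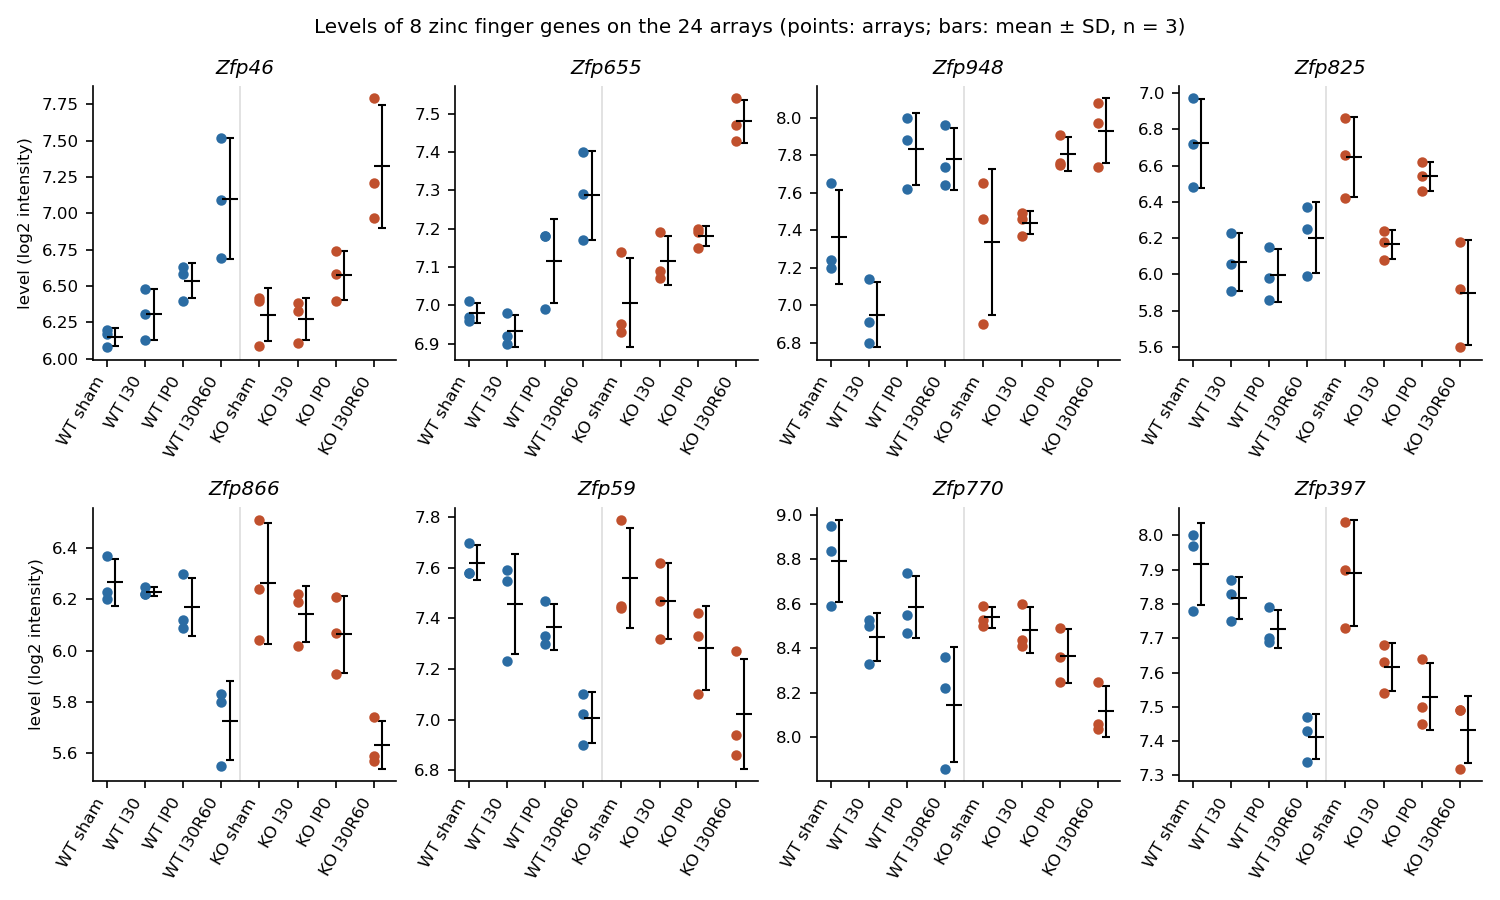
Log2 level (y axes, each with its own range that does not start at 0) of 8 zinc finger genes on each of 24 arrays, by group on the x axes, with WT in blue and KO in red; points are arrays, and bars beside them are mean ± SD (n = 3). Zfp46, Zfp655 and Zfp948 are highest after I30R60 in KO hearts, and Zfp866, Zfp59, Zfp770 and Zfp397 are lowest after I30R60 in both genotypes, while Zfp825 is below sham in both genotypes after I30 and in WT after IP0.

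Promoter sequence was read for members that moved together. RefSeq promoter windows of the GRCm38.p6 build were matched by gene identifier for 78 of the 98 members, with 101 windows of the 250 bases before a start site. Their median GC content was 57.2% against 52.4% over 32851 windows of all genes, and their median observed to expected CpG ratio was 0.742 against 0.373. Both strands were searched for 4 motifs. The GC box GGGCGG was found in 54.5% of the members' windows and 32.7% of all, the core of the cAMP response element TGACG in 29.7% and 17.8%, the E-box CACGTG that clock factors can bind in 7.92% and 6.02%, and the AP-1 motif TGANTCA in 4.95% and 6.75%. The 212 windows of numbered Zfp genes with a mean under 6 had a median GC content of 53.6% and a CpG ratio of 0.59. Their shares for the 4 motifs, in the same order, were 37.3%, 25.5%, 5.66% and 2.36%. In the 25 windows of 19 members that fell after I30R60 these shares were 48%, 32%, 16% and 4%. The median GC content of those windows was 52.4%, equal to that of all windows, and their CpG ratio was 0.744. In the 7 windows of 5 members that rose the shares were 57.1%, 42.9%, 0% and 0%, with a median GC content of 63.2% and a CpG ratio of 0.792. Windows of all genes with a mean of at least 6 were not compared. A match is a description of the sequence and not a binding site.

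The windows of Zfp46 and Zfp655, which rose in both genotypes, and of Zfp825, Zfp866 and Zfp59, which fell the most or in both genotypes, are given 5′ to 3′ on the strand of the gene, with matches to the 4 motifs on either strand in capitals.
Zfp46 (first start site), chr4:136284426-136284675, plus strand: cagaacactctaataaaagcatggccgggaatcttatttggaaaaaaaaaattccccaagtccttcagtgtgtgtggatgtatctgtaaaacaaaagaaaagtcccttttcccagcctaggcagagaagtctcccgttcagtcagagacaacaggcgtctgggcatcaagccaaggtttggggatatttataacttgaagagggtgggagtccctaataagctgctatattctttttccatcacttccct
Zfp46 (second start site), chr4:136285817-136286066, plus strand: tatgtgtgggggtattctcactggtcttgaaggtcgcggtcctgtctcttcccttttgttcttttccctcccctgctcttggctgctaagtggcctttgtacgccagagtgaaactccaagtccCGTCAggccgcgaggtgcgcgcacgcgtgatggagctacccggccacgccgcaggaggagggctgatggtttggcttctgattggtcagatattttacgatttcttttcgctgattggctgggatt
Zfp655, chr5:145231492-145231741, plus strand: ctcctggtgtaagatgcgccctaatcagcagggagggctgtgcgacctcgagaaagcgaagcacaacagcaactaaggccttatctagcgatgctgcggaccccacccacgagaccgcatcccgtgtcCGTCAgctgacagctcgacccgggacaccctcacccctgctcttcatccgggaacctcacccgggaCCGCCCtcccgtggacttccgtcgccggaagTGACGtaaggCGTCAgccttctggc
Zfp825, chr13:74493962-74494211, minus strand: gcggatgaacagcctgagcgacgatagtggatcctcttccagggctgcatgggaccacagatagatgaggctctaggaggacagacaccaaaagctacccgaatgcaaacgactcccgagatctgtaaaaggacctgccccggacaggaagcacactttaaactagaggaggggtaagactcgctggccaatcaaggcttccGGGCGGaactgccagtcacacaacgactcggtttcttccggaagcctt
Zfp866, chr8:69774912-69775161, minus strand: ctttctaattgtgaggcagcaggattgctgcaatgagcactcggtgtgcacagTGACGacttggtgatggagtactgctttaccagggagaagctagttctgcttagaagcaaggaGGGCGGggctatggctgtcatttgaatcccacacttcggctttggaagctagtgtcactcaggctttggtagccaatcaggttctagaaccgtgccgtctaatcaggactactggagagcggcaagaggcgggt
Zfp59, chr7:27838334-27838583, plus strand: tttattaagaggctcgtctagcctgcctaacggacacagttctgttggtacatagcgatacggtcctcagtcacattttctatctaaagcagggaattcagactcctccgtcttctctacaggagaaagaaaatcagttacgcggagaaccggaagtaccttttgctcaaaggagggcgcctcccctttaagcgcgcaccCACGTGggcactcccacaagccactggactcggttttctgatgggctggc
The first window of Zfp46 holds none of the motifs and the second holds 1 cAMP response element core, while the window of Zfp655 holds 4 matches. Zfp59 has the only E-box among them.

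Counted by genotype, 8 members (8.16%) fell and 2 (2.04%) rose in WT hearts after I30R60, where 0.808% of all genes fell and 1.66% rose. Genes with a mean of at least 6 gave 1.15% lower and 2.74% higher. The 8 lower members were Zfp770, Zfp59, Zfp933 (-0.59), Zfp346 (-0.57), Zfp866, Zfp397, Zfp809 (-0.50) and Zfp207 (-0.37). Zfp346 is a double-stranded RNA-binding protein, Zfp809 is a KRAB protein that silences murine leukaemia proviruses, and Zfp207 is the Bub3 partner named above. Zfp809 read 8.33, 8.31 and 8.35 in WT sham and 7.87, 7.93 and 7.70 in WT I30R60 hearts, and its KO difference of -0.25 was not called (SE 0.09, adjusted p = 0.106). This count of 10 fell to 4 without WT I30R60 replicate 1 and to 6 without WT sham replicate 1 or 3. Without the arrays with high Myl7 only Zfp770 and Zfp397 were called, and WT sham was then 1 array, assumed to vary like the other groups.

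In Per2-/- hearts 11 members (11.2%) fell and 3 (3.06%) rose after I30R60, where 2% of all genes fell and 2.78% rose. Genes with a mean of at least 6 gave 2.83% lower and 4.48% higher. The largest falls among the members were those of Zfp825 (-0.75), Zfp950 (-0.66), Zfp866 (-0.63), Zfp781 (-0.56), Zfp84 (-0.55) and Zfp59 (-0.54). Zfp950 read 7.77, 7.99 and 8.21 in KO sham and 7.09, 7.51 and 7.38 in KO I30R60 hearts. Zfp84 read 6.39, 6.60 and 6.68 against 5.93, 6.0 and 6.10 in the same groups, and neither gene overlapped. The call of Zfp84 was lost without KO sham replicate 2 or 3 or KO I30R60 replicate 1 or 2. The 14 calls became 7 without KO I30R60 replicate 1 and 8 without the arrays with high Myl7.

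The genotypes share no arrays, so that their responses could be set beside each other. After I30R60, 82 of the 98 members had the same sign in WT and KO hearts, 69 lower in both and 13 higher in both. That share of 83.7% compares with 72.5% of genes with a mean of at least 6. All 10 members called in WT had the same sign in KO. All 14 called in KO had the same sign in WT, and 6 were called in both. Among genes with a mean of at least 6, 293 of 297 called in WT had the same sign in KO. Of 558 such genes called in KO, 537 had the same sign in WT, and 205 were called in both. Over the 98 genes, Pearson's r was 0.744 and Spearman's rho 0.611, and over the 7635 genes r was 0.792 and rho 0.557. Genes are not independent replicates, and the correlations describe these arrays.

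**Figure D4:**
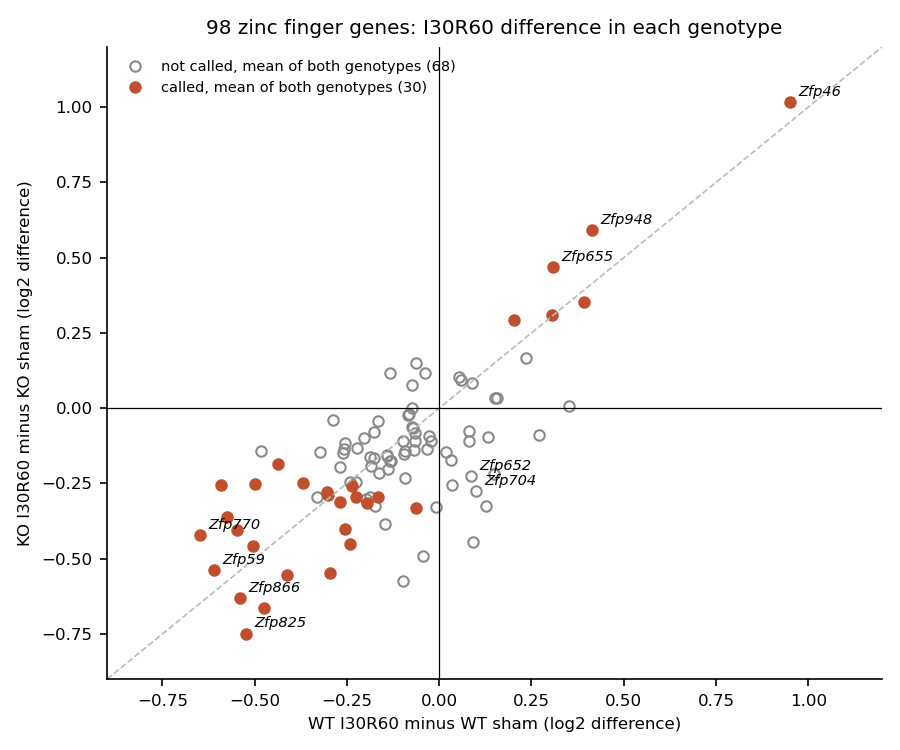
Difference between I30R60 and sham in WT hearts (x axis, log2) against that in KO hearts (y axis, log2) for the 98 zinc finger genes; filled red points are the 30 called in the mean of both genotypes, open points the other 68, and the dashed line marks equal differences. All filled points lie below 0 on both axes or above 0 on both axes, with Zfp46 at 0.95 and 1.02.

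No member's response was shown to differ between the genotypes. The interaction, the KO difference minus the WT difference, was called for 0 members after I30, IP0 or I30R60 with limma, and for 0% of all genes in each. At an unadjusted p below 0.05 there were 5, 5 and 6 members (5.1%, 5.1% and 6.12%), near the 7.1%, 4.81% and 5.49% of all genes, and the alternatives tried also called 0. After I30R60 the smallest p was that of Zfp652, a transcriptional repressor, which read 8.45, 8.50 and 8.30 in WT sham and 8.48, 8.49 and 8.53 in WT I30R60 hearts, and 8.55, 8.58 and 8.64 against 8.35, 8.35 and 8.39 in KO hearts (interaction -0.31, SE 0.10, adjusted p = 0.831). Next was Zfp704, at -0.38 (SE 0.13, adjusted p = 0.888). After I30 these were Zfp827, which brings chromatin remodellers to telomeres (0.51, SE 0.17, adjusted p = 0.51), and Zfp110, a partner of the p75 neurotrophin receptor (0.36, SE 0.14, adjusted p = 0.588). After IP0 they were Zfp825 (0.62, SE 0.21, adjusted p = 0.927) and Zfp704 (-0.31, SE 0.13, adjusted p = 0.997).

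Ischemia without reperfusion gave few calls. In WT hearts 2 members (2.04%) fell after I30 and 0 rose, where 1.18% of all genes fell and 1.2% rose. Of genes with a mean of at least 6, 2.15% fell and 0.34% rose, so that the members' falls were near that share. Zfp825 read 6.97, 6.72 and 6.48 in sham and 5.91, 6.06 and 6.23 after I30 (-0.66, SE 0.15, adjusted p = 0.0284). Zfp110 read 7.43, 7.47 and 7.67 in sham and 6.95, 7.07 and 7.24 after I30 (-0.44, SE 0.10, adjusted p = 0.0242). No I30 heart overlapped a sham heart for either gene, and both calls were lost without WT sham replicate 1 or WT I30 replicate 1. In KO hearts 0 members were called, as were 0% of all genes, although Zfp825 read 6.24, 6.08 and 6.18 there, below its KO sham hearts (-0.48, SE 0.15, adjusted p = 0.593). In that comparison 8 members (8.16%) had an unadjusted p below 0.05, near the 7.14% of all genes. In the mean of both genotypes Zfp825 (-0.57, SE 0.11, adjusted p = 0.016) and Zfp719 (-0.37, SE 0.09, adjusted p = 0.0434) fell, where 0.818% of all genes fell and 0.792% rose. These 2 are 2.04% of the members, against 1.34% lower among genes with a mean of at least 6. The call of Zfp719 was lost with 9 of the 12 arrays left out, each in turn. The 2 calls became 0 without WT sham replicate 1, with quantile normalization or without the 4 arrays with high Myl7.

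The members leaned lower after I30 in small steps. Their median difference was -0.10 against -0.06 for genes with a mean of at least 6, and 84.7% were below 0 against 74.1%. After quantile normalization the medians were -0.03 and -0.01. The interquartile range over all probe sets was 3.76 to 3.87 on the WT I30 arrays, the narrowest of any group, 3.85 to 3.98 on the KO I30 arrays and 3.95 to 4.11 on the arrays of the other groups. Beside the lung markers, of which 4 of 6 rose in WT I30 hearts, endothelium markers averaged 8.90 to 8.99 there against 9.13 to 9.33 in WT sham (1 of 6 called lower), red cell markers 4.92 to 5.71 against 4.37 to 4.50 (0 of 2 called) and neutrophil markers 4.34 to 5.97 against 4.28 to 4.36 (0 of 7 called). The part of these differences and of the narrower spread in the I30 values was not tested.

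After ischemic preconditioning Zfp825 was the single member (1.02%) called in WT hearts, where 0.329% of all genes fell and 0.521% rose. With a mean of at least 6, 0.60% of genes fell and 1.06% rose. Zfp825 read 6.15, 5.98 and 5.86 after IP0, all below the sham hearts (-0.73, SE 0.15, adjusted p = 0.0239). The call was lost without WT sham replicate 1 or 2 and without WT IP0 replicate 2 or 3. KO IP0 hearts gave 6.54, 6.46 and 6.62 for Zfp825, a difference of -0.11 (SE 0.15, adjusted p = 0.917), within the spread of the KO sham hearts. In KO hearts 0 members were called after IP0, where 0.0425% of all genes fell and 0.117% rose. At an unadjusted p below 0.05 there were 18 members (18.4%), against 8.23% of all genes and 9.86% of genes with a mean of at least 6.

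In the mean of both genotypes 5 members (5.1%) fell and 1 (1.02%) rose after IP0, where 0.925% of all genes fell and 1.02% rose. For genes with a mean of at least 6 the shares were 1.55% and 2.07%. Zfp948 rose by 0.47 (SE 0.11, adjusted p = 0.0376), with 7.62, 7.88 and 8.0 in WT and 7.91, 7.75 and 7.76 in KO hearts. Those that fell were Zfp825 (-0.42, adjusted p = 0.0436), Zfp429 (-0.38, adjusted p = 0.0379), Zfp397, Zfp809 (-0.27, adjusted p = 0.0232) and Zfp207 (-0.25, adjusted p = 0.0364). Zfp429 read 6.61, 6.88 and 6.73 in WT sham and 6.26, 6.40 and 6.38 in WT IP0 hearts, and 6.47, 6.67 and 6.67 against 6.13, 6.38 and 6.19 in KO hearts, and its I30R60 difference was close to 0. With each array centred on its median the direction of the calls turned: 0 members fell and 3 rose, Zfp948 (0.53), Zfp704 (0.29) and Zfp655 (0.22). The median over the members moved from -0.09 to -0.03 and that of genes with a mean of at least 6 from 0.00 to 0.06. The 6 calls became 0 without WT IP0 replicate 2, without KO IP0 replicate 1 or without the arrays with high Myl7, and at most 4 without any other single array.

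**Figure D5:**
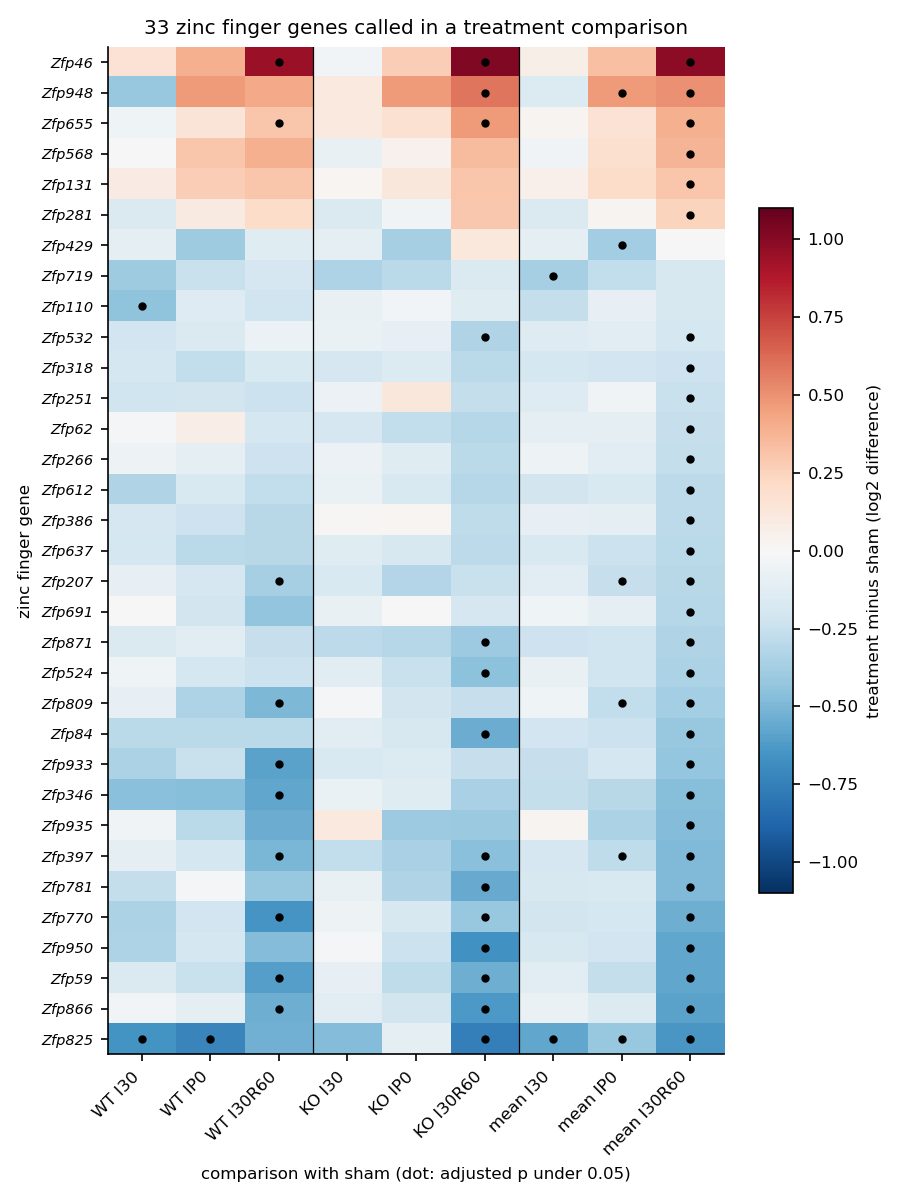
Differences from sham (colour, log2) for the 33 zinc finger genes called in at least 1 treatment comparison, as rows ordered by their mean I30R60 difference, with the comparisons of WT, KO and the mean of both genotypes as columns and a dot where the adjusted p is below 0.05. Most dots stand in the I30R60 columns, the 6 top rows are the genes that rose, and Zfp825 in the last row has dots in 6 columns.

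Over all treatment comparisons 33 members (33.7%) were called at least once and 65 never, against 13.1% of all genes and 19.0% of genes with a mean of at least 6 called at least once. Among those never called were Zfp706 and Zfp106. Zfp706 read 10.65 to 10.86 in WT sham and 10.64 to 10.74 in WT I30R60 hearts, with a mean I30R60 difference of 0.00 (SE 0.06). Zfp106 had one of -0.15 (SE 0.05, adjusted p = 0.0827). Comparisons of different treatments share the sham arrays, so that a gene's values in them are not independent.

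Between genotypes, over all 4 treatments, 1 member (1.02%) was called, where 0.755% of all genes were lower in KO and 1.13% higher. For genes with a mean of at least 6 the shares were 1.11% lower and 2.00% higher. Zfp251 ran from 5.99 to 6.56 on the 12 WT arrays and from 5.48 to 6.15 on the 12 KO arrays, a difference of -0.23 (KO minus WT, SE 0.05, adjusted p = 0.0238). Its group means ran from 6.071 to 6.308 in WT and from 5.701 to 6.083 in KO, so that it met the mean of 6 through its WT arrays. The call therefore describes a gene that the threshold admitted by its WT level. The highest group mean was that of the WT sham hearts, at 6.28, 6.09 and 6.56, and the lowest that of the KO I30R60 hearts, at 5.89, 5.48 and 5.73, though single arrays of other groups lay between these values. Its call was lost without KO sham replicate 2 or KO IP0 replicate 2.

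The 214 numbered Zfp genes with a mean under 6 leaned the same way. In the mean of both genotypes 63 of them fell after I30R60 and 1 rose, Zfp469 (0.44, adjusted p = 0.0474), with a median of -0.23. They were 29.4% lower and 0.467% higher against 5.05% and 4.29% of all genes. In WT hearts 20 (9.35%) fell and 0 rose, where 0.808% of all genes fell and 1.66% rose. In KO hearts 35 (16.4%) fell and 0 rose, where 2% of all genes fell and 2.78% rose. Zfp799 had the largest fall among them in the mean of both genotypes, reading 6.01, 5.92 and 6.06 in WT sham and 4.43, 5.08 and 4.76 in WT I30R60 hearts and 6.04, 5.50 and 6.06 against 5.14, 5.01 and 4.78 in KO hearts (mean -1.07, SE 0.15, adjusted p = 5.54e-05). In KO hearts alone the falls of Zfp418 (-1.30) and Zfp11 (-1.29) were larger than its -0.89. At such levels, nearer to the median of all values of 4.44, a probe set's signal is less far above background and differences may be understated.

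Over the 8 group means, the genes whose pattern was most like that of Zfp799 were Fbxo9 (Pearson's r = 0.983), Sike1 (0.98), Tbc1d13 (0.979), Abca8b (0.975) and Rdx (0.97). Among the members they were Zfp59 (0.959), Zfp397 (0.947) and Zfp207 (0.922). The 8 points share the platform and its processing. These are the highest correlations out of 18820 genes, or out of the 98 members, and such a choice gives high values by itself. They describe the group means and are no test of shared regulation.

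Of 32 genes of the KRAB corepressor complex and its partners, 27 were measured, and 1 (3.7%) was called after I30R60 in the mean of both genotypes, where 9.34% of all genes and 14.9% of genes with a mean of at least 6 were called. That was Setdb1, the histone methyltransferase, at 6.83, 6.59 and 6.70 in WT sham and 6.30, 6.40 and 6.29 in WT I30R60 hearts, and 6.52, 6.65 and 6.55 against 6.06, 6.38 and 6.49 in KO hearts (-0.32, SE 0.09, adjusted p = 0.0271). The corepressor Trim28 itself gave -0.11 (SE 0.05, adjusted p = 0.187). In KO hearts alone the single call was Morc3, a nuclear ATPase (-0.36, adjusted p = 0.0264). The median of the 27 was -0.04 after I30R60, close to the -0.05 of genes with a mean of at least 6.

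Of 16 other C2H2 genes, named Zbtb, Zkscan or Zscan and a number and with a mean of at least 6, 2 (12.5%) fell after I30R60 in the mean of both genotypes and 0 rose, where 7.96% of genes with a mean of at least 6 fell and 6.98% rose. Zkscan3, a repressor of autophagy and lysosome genes, read 6.90, 6.85 and 6.89 in WT sham and 6.43, 6.39 and 6.50 in WT I30R60 hearts, and 7.03, 7.01 and 7.03 against 6.38, 6.56 and 6.33 in KO hearts (-0.52, SE 0.05, adjusted p = 1.99e-06). Zscan26 fell by 0.46 (SE 0.06, adjusted p = 1.71e-05). The 16 genes had a median of -0.11. As a contrast in the same hearts, 15 of 18 early response genes, such as Fos and Egr1, rose after I30R60 and 0 fell.

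The members were spread over the genome. All 98 were matched to RefSeq genes, and 16 of them (16.3%) lay on chromosome 7, which holds 9.27% of coding genes. Another member was found within 2 coding genes for 11 of them, and such neighbours did not always move alike. On chromosome 17, Zfp948 lies next to Zfp52, and after I30R60 the mean difference was 0.50 for Zfp948, -0.04 for Zfp52 and -0.19 for Zfp51, which is separated from Zfp52 by 1 gene. On chromosome 8 the mean difference was -0.58 for Zfp866 and -0.27 for Zfp869, with 1 gene between them.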

How the data were processed

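The authors hybridised left ventricular RNA to Affymetrix Mouse Gene arrays, named 1.1 ST in the methods and 2.1 ST in the design text, and deposited RMA log2 intensities made with Partek Genomics Suite 6.6. RMA corrects the background, quantile normalizes and summarises probes. The table held 35555 probe sets, of which 21218 had 1 symbol in the platform annotation, 1881 several and 12456 none listed. The probe set with the highest mean stood for each of 18820 genes (6 of 98 members had several), and 23 Zfp symbols found only on probe sets with several symbols were not used. No detection calls were used, and 3 arrays per group limit the precision. Groups came from the labels.

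A group-means model over all 24 arrays (16 residual degrees of freedom) was fitted with limma 3.58.1 in R 4.3.3 (empirical Bayes, Benjamini-Hochberg), with 13 contrasts, and checked on simulated data. Tables and plots used pandas 2.3.3 and matplotlib 3.10.9 in Python 3.11.15. Named genes were, besides Per2 and Zfp799, the members with the highest means and nearest the threshold, up to 6 called members in each direction per comparison, the 2 smallest p-values where none was called, and genes of 4 fixed lists. The members, lists and the alternative without 4 arrays were chosen with earlier results of these data known. Replicate numbers were not used to pair arrays in the main model. Proteins were not analysed here.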

Additional observations from a re-analysis of the deposited data

How the results depend on the processing

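Of the 70 differences called for single genes, 67 kept their call with the replicate number as a block, 69 with a trended and robust prior, 69 with the probe set of largest variance, 64 with quantile normalization, 56 with centred arrays, 37 by the methods' t-test, 29 with only the arrays of the groups compared and 27 without the 4 arrays with high Myl7, and none changed sign. Testing only genes with a mean of at least 6, a smaller family of tests, kept all 66 that it held. The paper names Student's t-test in its general data analysis and does not tie it to the arrays. The t-test setting here compared 2 groups alone only for treatments within 1 genotype. For the mean of both genotypes, the interactions and the genotype comparison it used the model over all arrays without moderation. Called members, in the order WT I30, WT IP0, WT I30R60, KO I30R60, mean I30 and mean IP0, were 2, 1, 10, 14, 2 and 6. They became 0, 0, 1, 1, 0 and 4 with only the arrays compared, 0, 0, 2, 8, 0 and 0 without the high Myl7 arrays, 0, 0, 0, 0, 1 and 4 by the t-test, and 6, 5, 18, 26, 5 and 15 among genes with a mean of at least 6, where KO IP0 went from 0 to 1. A 1.5-fold minimum left 1 in WT I30, 4 in WT I30R60, 5 in KO I30R60, 0 in mean I30, 0 in mean IP0, 2 in mean I30R60 and 0 between genotypes. WT IP0 had 2 calls with centring, 2 with quantile normalization and 4 with the trended prior. Quantile normalization left 0 calls in WT I30 and 0 in mean I30, and centring left 1 in mean I30 and 3 in mean IP0. The 30 calls of mean I30R60 became 14 without the high Myl7 arrays and 22 to 41 in the other settings without a fold minimum. The genotype comparison had 2 calls with centring, with quantile normalization and without the high Myl7 arrays, 3 with the trended prior and 4 among genes with a mean of at least 6, where Zfp251 was 1 of them. The causes were not tested.

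With 1 array left out, called members ranged from 0 to 4 in WT I30, 0 to 1 in WT IP0, 4 to 12 in WT I30R60, 7 to 13 in KO I30R60, 0 to 4 in mean I30, 0 to 4 in mean IP0, 23 to 29 in mean I30R60 and 0 to 2 between genotypes, and stayed at 0 in KO I30, KO IP0 and the 3 interactions. A minimum mean of 5 would give 185 members and 7 would give 36. The replicate block changed the counts to 11 in WT I30R60, 5 in mean IP0 and 29 in mean I30R60 and left the others. Deviations of same-numbered arrays had a mean correlation of 0.0203, against -0.0101 for other numbers, and 1 of 28 pairs of groups had all over 0.1. Yet 19 of 24 arrays correlated best with an array of their own number. That is a hint from the data, and what the numbers stand for was not tested. Signal over background is unknown without detection calls, which limits the lowest levels.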
